A study of Mus musculus with 7 samples.

Results

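The transcripts described here are those of 10 AP-1 and immediate early response genes, found by symbol in a table of 33298 mouse genes. The list of symbols was drawn up with earlier results of these data known. They are Fos, Fosb, Jun, Junb, Jund, Egr1, Ier2, Ier3, Atf3 and Dusp1, and each matched a single row. RNA was sequenced from hematopoietic stem cells (HSCs) of the bone marrow of mice aged 12 weeks, under homeostatic conditions, and the cells are labelled quiescent. Dek_fl, the control with 4 libraries, came from mice with Dek fl/fl alleles and no Cre. Dek_cKO, with 3 libraries, came from Dek fl/fl mice that also carried Tie2-Cre, a recombinase driven by an endothelial promoter that is also active in the forerunners of blood cells. The floxed alleles are shared by both groups, while Tie2-Cre itself is present only in the Dek_cKO libraries, so loss of DEK, a chromatin-binding protein, and presence of the recombinase cannot be told apart. Each library was made from about 800 cells sorted as Lin-Sca-1+c-Kit+CD48-CD150+ and amplified from polyadenylated RNA. The labels do not say whether libraries came from different animals. P-values therefore measure only how far these libraries spread, which may be technical.

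AP-1 is a dimer of leucine zipper proteins. FOS proteins pair with JUN proteins, JUN proteins also pair among themselves, and the dimers bind the DNA element TGANTCA. Immediate early genes are transcribed without new protein synthesis within minutes of a growth factor, cytokine or stress, cell handling included, through MAP kinases acting on serum response factor and CREB. In mouse HSCs, EGR1 and JUNB are known to restrain proliferation.

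The starts of the genes whose values carry the comparisons below are shown first, from RefSeq on GRCm38.p6. Each window runs from 250 bases before the start to 50 after it, 5′ to 3′ on the gene's own strand. Capitals mark matches on either strand to TGACGTCA (the full cAMP response element), TGACGT (its first part, which lies within it), TGANTCA, TGACATCA (an AP-1-like element), TATAAA or the CArG box of serum response factor. Of the 10 genes, 8 matched an entry, and 5 are shown.
Fos, chr12:85473640-85473939, plus strand: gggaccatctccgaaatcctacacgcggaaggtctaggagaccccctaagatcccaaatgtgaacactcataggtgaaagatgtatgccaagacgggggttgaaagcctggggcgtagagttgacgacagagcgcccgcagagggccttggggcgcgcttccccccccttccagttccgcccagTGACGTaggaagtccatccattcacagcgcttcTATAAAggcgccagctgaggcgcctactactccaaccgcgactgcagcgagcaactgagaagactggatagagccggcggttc
Jun, chr4:95052173-95052472, minus strand: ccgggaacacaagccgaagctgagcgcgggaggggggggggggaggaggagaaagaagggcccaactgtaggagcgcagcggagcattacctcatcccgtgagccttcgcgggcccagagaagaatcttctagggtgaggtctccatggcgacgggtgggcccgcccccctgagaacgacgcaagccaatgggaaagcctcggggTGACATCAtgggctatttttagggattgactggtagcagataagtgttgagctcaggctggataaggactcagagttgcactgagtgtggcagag
Junb, chr8:84978699-84978998, minus strand: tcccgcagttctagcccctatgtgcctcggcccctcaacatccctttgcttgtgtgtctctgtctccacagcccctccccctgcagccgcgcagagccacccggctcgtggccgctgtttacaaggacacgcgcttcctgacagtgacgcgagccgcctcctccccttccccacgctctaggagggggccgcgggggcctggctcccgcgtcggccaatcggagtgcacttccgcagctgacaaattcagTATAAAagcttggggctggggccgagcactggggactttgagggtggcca
Ier3, chr17:35821463-35821762, plus strand: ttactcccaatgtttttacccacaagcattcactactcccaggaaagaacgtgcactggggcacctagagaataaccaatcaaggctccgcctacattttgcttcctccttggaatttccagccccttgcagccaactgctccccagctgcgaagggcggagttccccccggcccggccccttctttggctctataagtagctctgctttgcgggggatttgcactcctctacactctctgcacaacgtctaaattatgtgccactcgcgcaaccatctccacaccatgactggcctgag
Dusp1, chr17:26508423-26508722, minus strand: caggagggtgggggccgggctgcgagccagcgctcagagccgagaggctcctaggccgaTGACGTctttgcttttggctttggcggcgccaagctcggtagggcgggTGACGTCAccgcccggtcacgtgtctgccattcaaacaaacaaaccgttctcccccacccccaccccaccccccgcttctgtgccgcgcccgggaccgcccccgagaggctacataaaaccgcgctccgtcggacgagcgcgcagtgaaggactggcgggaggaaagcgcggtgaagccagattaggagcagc
A match is a description of letters, not evidence of binding. Dusp1 held the full TGACGTCA, which 1.79% of 32851 promoter windows of the same length hold. TGACGT stood in Fos, in Dusp1 and in Atf3, against 7.51% of all windows, and TGACATCA in Jun, against 3.62%. TATAAA stood in Fos and Junb, against 13.6%. No TGANTCA and no CArG box was found in the 8 windows read, against 7.81% and 1.63% of all windows. Of these 8, the Jund window (chr8:70697489-70697788) ends before the Jund start of 70698949 given below. The Dusp1 window and the Atf3 window (chr1:191183284-191183583) lie inside the gene spans given below. On the minus strand those spans begin farther upstream, at 26562128 and 191218039. Ier2 and Egr1 had no entry, and bases farther than 250 before a start were not read. The absence therefore says nothing about elements elsewhere near these genes. None of the letters searched stood in the Ier3 window.

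Values are FPKM, fragments scaled by transcript length and by library total, as deposited. The library totals recovered from these values ranged from 4209152 to 26951515 reads, and the number of genes above 0 was lowest, at 8575, in Dek_fl replicate 4 and lay between 14291 and 19950 elsewhere. Of the 70 values of the 10 genes, 65 were above 0, and all 65 were whole numbers of reads at a single transcript length per gene. That check matters here because 42 of 7015 genes assessed over the table held values that were not whole reads. Dek itself is among them. Dek stood at 77.0, 118, 143 and 26.0 FPKM across the Dek_fl libraries and at 9.60, 8.40 and 12.7 FPKM in the Dek_cKO libraries, without overlap (two-sided exact permutation test on the group means, 35 splits, p = 0.0571). The value in Dek_cKO replicate 3 stands for 405.8 reads, which is not a whole number. The deposited value, 12.66015, carries more decimals than those of the other libraries. Multiplied by 10 it would stand for a whole number of reads and lie inside the Dek_fl range, so the groups would overlap. The same exact permutation test then gives p = 0.314. The check of that library's label thus rests on a value of uncertain form.

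The sorted phenotype was checked against 20 stem cell markers, which summed to 1160 to 1648 FPKM across the Dek_fl libraries and 1326 to 2207 in the Dek_cKO libraries. Lmo2, which is not a gene of the sort, alone held 267.5 to 1007 FPKM of these sums. Kit stood at 59.4 to 267 FPKM, Ly6a, which encodes Sca-1, at 88.7 to 310, and Procr at 15.6 to 69.7. Slamf1, which encodes the CD150 used in the sort, was listed at 0 in 3 libraries and reached at most 1.80 FPKM in the others. Hoxb5 was listed at 0 in 3 libraries, Tek in 2 and Mecom in 1, and Fgd5 was under 1 FPKM in 5. Gata2, a stem cell transcription factor, stood at 31.5, 73.1, 114 and 124 FPKM across the Dek_fl libraries and 7.52, 18.3 and 12.3 in the Dek_cKO libraries, without overlap (limma unadjusted p = 0.0126, not past adjustment), with values that are not whole reads. Markers of other lineages were not even across libraries. The 17 rows of the monocyte, macrophage and neutrophil list summed to 825 to 2589 FPKM across the Dek_fl libraries and to 594 to 11280 in the Dek_cKO libraries, the highest in Dek_cKO replicate 3, where Elane was at 5393 FPKM. The 9 megakaryocyte markers summed to 138 to 1273 FPKM across the Dek_fl libraries and 253 to 416 in the Dek_cKO libraries. The highest sum was in Dek_fl replicate 4, where Pf4 alone was at 1055 FPKM. Itga2b, Gp1bb, Itgb3 and Vwf were also highest in that library, at 111, 74.4, 22.4 and 10.4 FPKM. Ppbp, Gp1ba, Gp9 and Treml1 were listed at 0 there. The 14 B, T and NK markers summed to 116 to 602 FPKM across the Dek_fl libraries and 578 to 1405 in the Dek_cKO libraries, the 12 erythroid markers to 697 to 1197 and 400 to 943, and the 12 endothelial and stromal markers to 13.2 to 27.7 and 15.2 to 100. Of the last list, Cdh5 was listed at 0 in 5 libraries and Col3a1 in 6. Only 3 of the 12 reached 1 FPKM in at least 3 libraries. Pecam1 stood at 1.43 to 29.0 FPKM and Emcn at 0.607 to 19.7, and Pdgfrb reached 49.5 in Dek_cKO replicate 2. The part of these cells in the results below was not tested. In bulk samples, fewer cells of a type and less RNA per cell cannot be told apart.

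Most of the 10 genes were abundant in these cells, but their levels spanned a wide range. Mean FPKM over the 7 libraries was 475 for Ier2, 267 for Junb, 232 for Fos, 197 for Jun, 189 for Dusp1, 125 for Ier3, 46.6 for Egr1, 41.5 for Fosb, 4.72 for Jund and 0.126 for Atf3. Ier2 stood at or above the 98.3rd percentile of the table's genes in every library, and Fos at or above the 97.3rd. Ier2 was higher than Junb in 7 of 7 libraries (exact sign-flip test on log2(FPKM + 1), two-sided, p = 0.0156, the smallest possible, adjusted over 9 neighbouring pairs p = 0.0468). Fosb over Jund and Jund over Atf3 had the same order in 7 of 7 libraries and the same p-values by that test. The 6 other neighbours in this order, among them Junb and Fos (3 of 7 libraries) and Fos and Jun (4 of 7), did not pass (adjusted p 0.0702 to 0.781, exact sign-flip test). Thus from Junb down to Fosb no neighbours in the order were separated beyond the spread between libraries.

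**Figure D1:**
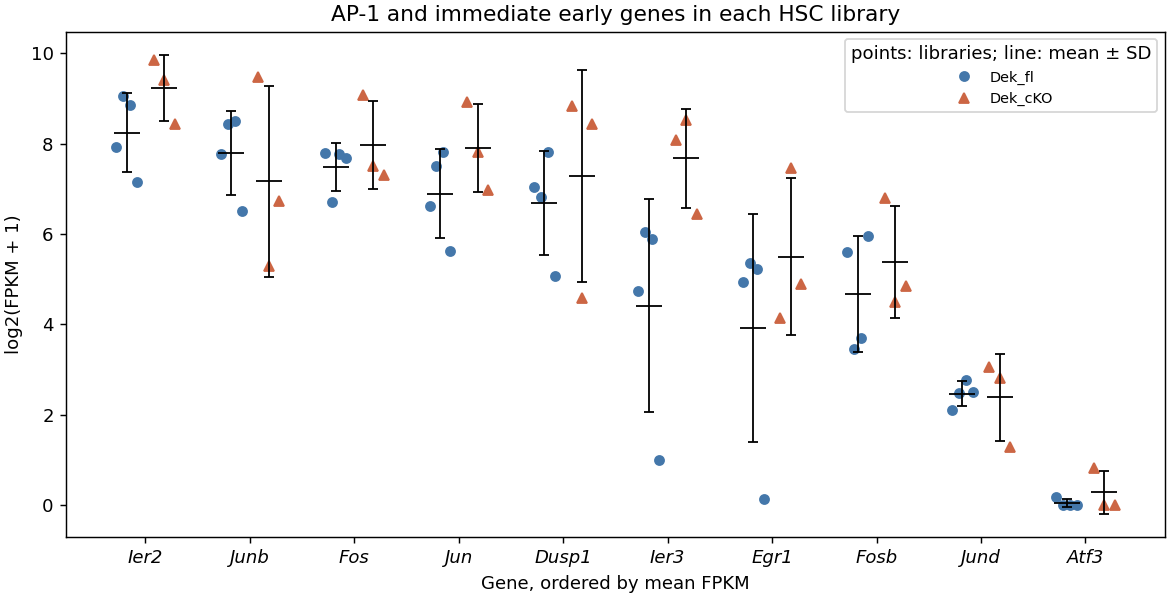
Level of each gene in each library as log2(FPKM + 1), with genes ordered by mean FPKM. Circles are the 4 Dek_fl and triangles the 3 Dek_cKO libraries, and black lines give the mean ± SD of each group. In Ier3 the triangles lie above all circles, and in every other gene the groups overlap.

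Among the FOS proteins' genes, Fos, on chromosome 12 (85473890 to 85477273, plus strand), encodes the founding member of AP-1. It stood at 220, 103, 218 and 205 FPKM in Dek_fl replicates 1 to 4 and at 543, 182 and 156 FPKM in Dek_cKO replicates 1 to 3. A single Dek_cKO library lay above the controls and the other two lay among them. Mean levels were 187 ± 56.1 FPKM in the Dek_fl libraries (SD, n = 4) and 294 ± 216 FPKM in the Dek_cKO libraries (SD, n = 3). On the log2(FPKM + 1) scale the fold change was 0.48 (SE 0.592, limma adjusted p = 0.9999), and it was -0.08 without Dek_cKO replicate 1. Fosb, a paralog that is induced with Fos, on chromosome 7 (19302696 to 19310051, minus strand), was at 47.4, 9.86, 11.9 and 61.2 FPKM across the Dek_fl libraries and at 111, 21.5 and 28.0 FPKM in the Dek_cKO libraries. Here Dek_fl replicates 1 and 4 were high and replicates 2 and 3 low, and Dek_cKO replicate 1 lay above that range while the other Dek_cKO libraries lay within it. Its log2 fold change was 0.71 (SE 1.05), and 0.00 without Dek_cKO replicate 1.

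Among the JUN proteins' genes, Jun, on chromosome 4 (95049034 to 95052222, minus strand), encodes the usual partner of FOS. It stood at 97.8, 182, 224 and 48.3 FPKM across the Dek_fl libraries and at 481, 223 and 124 FPKM in the Dek_cKO libraries. As for Fos, Dek_cKO replicate 1 was above every control and the other Dek_cKO libraries were among them. Its log2 fold change was 1.0 (SE 0.670), 0.50 without Dek_cKO replicate 1 and 0.28 by voom on reads recovered from the FPKM. Junb, which encodes a JUN protein with weaker activating power, lies on chromosome 8 (84974484 to 84978718, minus strand). It stood at 216, 348, 362 and 89.7 FPKM across the Dek_fl libraries and at 711, 38.4 and 105 FPKM in the Dek_cKO libraries, so that both the highest and the lowest of the 7 values were Dek_cKO libraries. Its SD on the log2 scale was 0.93 in the Dek_fl libraries and 2.12 in the Dek_cKO libraries, and its log2 fold change of -0.64 (SE 0.791) was -1.79 without Dek_cKO replicate 1 and 0.30 without Dek_cKO replicate 2. Jund, often expressed steadily in resting cells, on chromosome 8 (70698949 to 70700616, plus strand), was at 3.28, 4.56, 5.81 and 4.64 FPKM across the Dek_fl libraries and at 7.35, 5.96 and 1.43 FPKM in the Dek_cKO libraries, from 23 to 261 reads. Its 4 Dek_fl values had a log2 SD of 0.28, and its log2 fold change was -0.08 (SE 1.24), 0.03 without Dek_fl replicate 3 and 0.47 without Dek_cKO replicate 3.

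Egr1 encodes a zinc finger transcription factor and lies on chromosome 18 (34859823 to 34864984, plus strand). It stood at 29.7, 40.1, 36.4 and 0.0987 FPKM across the Dek_fl libraries and at 16.6, 174 and 28.8 FPKM in the Dek_cKO libraries. The value of Dek_fl replicate 4 rests on 2 reads, against 444 to 4397 in the other libraries, and the highest value was Dek_cKO replicate 2, not replicate 1. Its log2 fold change was 1.58 (SE 1.32), and 0.32 without Dek_fl replicate 4.

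Atf3 encodes a leucine zipper protein of the stress response and lies on chromosome 1 (191170296 to 191218039, minus strand). It was nearly undetected, at 0.12 FPKM (1 read) in Dek_fl replicate 1 and 0.762 FPKM (9 reads) in Dek_cKO replicate 1, and it was listed at 0 in the other 5 libraries. A count of 0 allows up to 3 reads, which is 0.0561 to 0.359 FPKM at the depths of the 7 libraries and covers counting error only. It did not pass the filter of at least 1 FPKM in at least 3 libraries and was not tested, so 9 of the 10 genes were.

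Ier2 and Ier3 are short immediate early genes, the first encoding a nuclear protein that acts in transcription and the second a regulator of survival. Ier2, on chromosome 8 (84661331 to 84662852, minus strand), stood at 242, 531, 463 and 142 FPKM across the Dek_fl libraries and at 924, 681 and 344 FPKM in the Dek_cKO libraries. Dek_cKO replicates 1 and 2 were above all controls and replicate 3 was within them, with a log2 fold change of 0.98 (SE 0.539). It was 0.62 without Dek_fl replicate 4 and 0.35 by voom on recovered reads. Ier3, on chromosome 17 (35821684 to 35822923, plus strand), stood at 25.6, 64.9, 58.6 and 0.978 FPKM across the Dek_fl libraries and at 269, 368 and 85.8 FPKM in the Dek_cKO libraries. Its groups did not overlap, and all 3 Dek_cKO libraries were above the highest control. Mean levels were 37.5 ± 29.8 FPKM in the Dek_fl libraries (SD, n = 4) and 241 ± 143 FPKM in the Dek_cKO libraries (SD, n = 3). The log2 fold change was 3.27 (SE 1.07, limma unadjusted p = 0.00611, adjusted p = 0.9999), which did not pass the threshold of 0.05. The two-sided exact permutation test on mean log2(FPKM + 1), with 35 splits, gave p = 0.0857. Dek_fl replicate 4, with 5 reads of Ier3, widens the difference, which was 2.12 without it and 3.89 without Dek_cKO replicate 3. By voom on recovered reads the log2 fold change was 2.21 (SE 1.21, voom unadjusted p = 0.0831), not past even the unadjusted 0.05.

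Dusp1 encodes a phosphatase that switches off MAP kinases and is itself an immediate early gene. It lies on chromosome 17 (26505590 to 26562128, minus strand). It stood at 131, 112, 223 and 32.4 FPKM across the Dek_fl libraries and at 457, 22.9 and 347 FPKM in the Dek_cKO libraries. Dek_cKO replicates 1 and 3 were above all controls and replicate 2 was below them. Its log2 fold change of 0.60 (SE 0.894) became -0.17 when Dek_cKO replicate 1 was left out and 1.96 when replicate 2 was, and it was 0.06 in the absence of Dek_fl replicate 4 and 0.02 in that of Dek_cKO replicate 3. Genes annotated on the opposite strand overlap Jun (Junos), Junb (Prdx2), Jund (Gm11175), Atf3 (Gm24748) and Dusp1 (Ergic1 and Gm8225), and a pseudogene and an intronic transcript lie within Dusp1 on its own strand. These overlaps are of whole gene spans, and shared exons were not checked. The sources used here do not state that strand was used in counting. Whether reads of such pairs were mixed was not tested.

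Against this spread, no member passed the comparison of Dek_cKO with Dek_fl. Of the 9 genes tested, 0 passed an adjusted p of 0.05 by limma, as did 0 of 10260 genes in all (0.0%), and the smallest adjusted p over all genes was 0.9999. At an unadjusted p under 0.05 by limma, 1 of the 9 (Ier3) was higher, against 2.12% of all tested genes, and 0 were lower, against 1.81%. The same single gene was without overlap on the higher side, where 2.86% of all tested genes were, and 0 of the 9 were without overlap on the lower side (2.09%). By the exact permutation test of each gene 0 of 9 reached 0.05, and 0.0286 is the smallest p that 35 splits allow. A log2 fold change above 0 was found in 7 of the 9, with a median of 0.71, against 52.0% and a median of 0.05 over all tested genes. That count was 5 and the median 0.00 without Dek_cKO replicate 1.

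Most of these genes had their highest level in the same library. Of the 9 tested, 7 were highest in Dek_cKO replicate 1, where 16.0% of all tested genes were highest, and the other 2, Egr1 and Ier3, were highest in Dek_cKO replicate 2 (15.8% of all genes). Atf3 too was highest in Dek_cKO replicate 1. On the log2(FPKM + 1) scale the median member stood 1.59 above its own mean in Dek_cKO replicate 1, where the median of all tested genes stood at -0.06. The summed level of the 10 genes was 3521 FPKM there, against 1220 and 1717 in the other Dek_cKO libraries and 584 to 1602 in the Dek_fl libraries. At the other end, 4 of the 9 were lowest in Dek_fl replicate 4, where 34.0% of all tested genes were lowest. The median member stood at -1.51 in that library, in which the median of all tested genes was also low, at -0.76. No correlation of a member with the number of genes above 0 passed (9 members, adjusted p 0.416 to 0.656 for Pearson's r and 0.6 to 0.906 for Spearman's rho, exact permutation over 5040 pairings). For Egr1 r was 0.73 and rho 0.36 (permutation adjusted p = 0.416 and 0.64), and r was -0.15 without the 2 libraries farthest from the median.

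**Figure D2:**
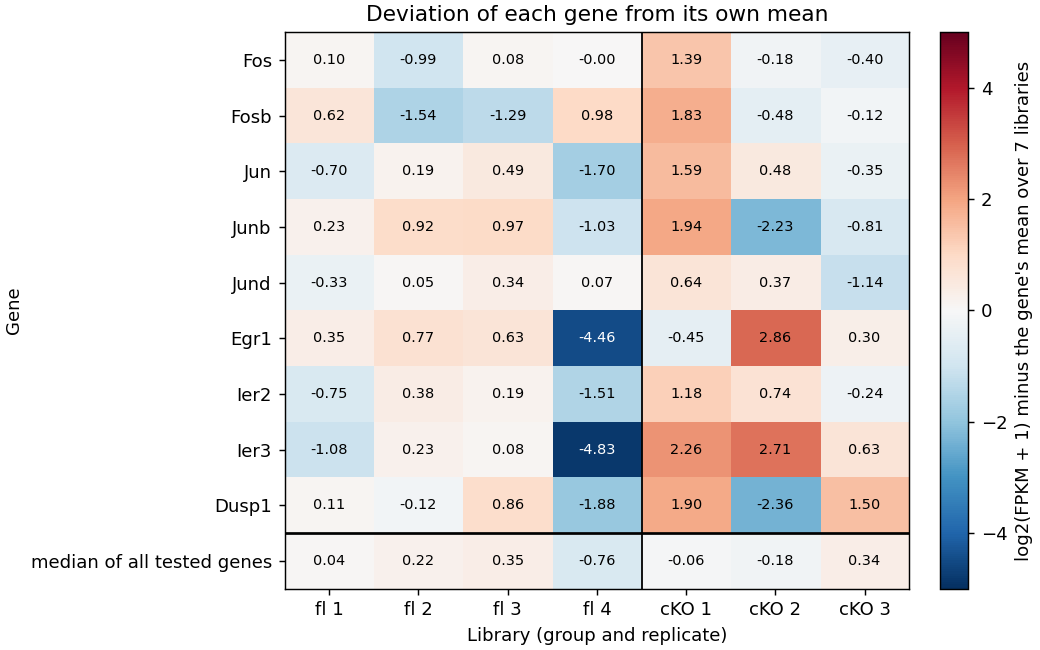
Each cell gives log2(FPKM + 1) of a gene in a library minus that gene's mean over the 7 libraries, red above and blue below, and the lowest row gives the median of this difference over all tested genes. Dek_cKO replicate 1 is above the mean in 8 of 9 genes, Egr1 being the exception at -0.45, and Dek_fl replicate 4 is lowest for Jun, Egr1, Ier2 and Ier3.

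The members did not move as a single block. Over the 36 pairs of the 9 genes, Pearson's r across the 7 libraries had a median of 0.33 and ranged from -0.52 to 0.97, while the median over all 52628670 pairs of tested genes was 0.036. An r of 0.7 or more was found in 6 of the 36 pairs (5.64% of all pairs), in 13 without Dek_cKO replicate 2 (8.41%) and in 9 without Dek_cKO replicate 3 (7.72%). The median r of the members was 0.02 without Dek_cKO replicate 1 and was 0.51 without Dek_cKO replicate 2. With values centred on the group means it was 0.34.

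Of the 36 pairs, 2 passed Benjamini-Hochberg adjustment for Pearson's r and 0 for Spearman's rho. Jun and Ier2 had r = 0.97 (exact permutation p = 0.000794, adjusted p = 0.0286) and rho = 0.89 (permutation p = 0.0123, adjusted p = 0.41). Their r was 0.92 without the 2 libraries farthest from the median of Jun, and between 0.94 and 0.98 when any single library was left out. Ier2 and Ier3 had r = 0.93 (exact permutation p = 0.00218, adjusted p = 0.0393) and rho = 0.86 (permutation p = 0.0238, adjusted p = 0.41), with r = 0.82 without the 2 libraries farthest from the median of Ier2. Depth and composition are shared by all genes of a library and were not removed from these values.

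Jun and Ier3, the third side of this group, had r = 0.88 and rho = 0.68 (permutation adjusted p = 0.157 and 0.493), and did not pass. Their r was 0.64 without the 2 libraries farthest from the median of Jun, and between 0.73 and 0.91 when any single library was left out.

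The other 3 pairs with an r of 0.7 or more moved further when libraries were left out. Egr1 and Ier3 had r = 0.85 and rho = 0.43 (permutation adjusted p = 0.276 and 0.707), and r = -0.72 without the 2 libraries farthest from the median of Egr1. Fos and Fosb had r = 0.79 and rho = 0.68 (permutation adjusted p = 0.232 and 0.493), and r = 0.09 without the 2 farthest. Junb and Dusp1, both low in Dek_cKO replicate 2 and Dek_fl replicate 4, had r = 0.75 and rho = 0.75 (permutation adjusted p = 0.349 and 0.493), and r = 0.30 without the 2 libraries farthest from the median of Junb. At the other end Fosb and Egr1 had r = -0.52 and rho = -0.82 (permutation adjusted p = 0.41 for rho).

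**Figure D3:**
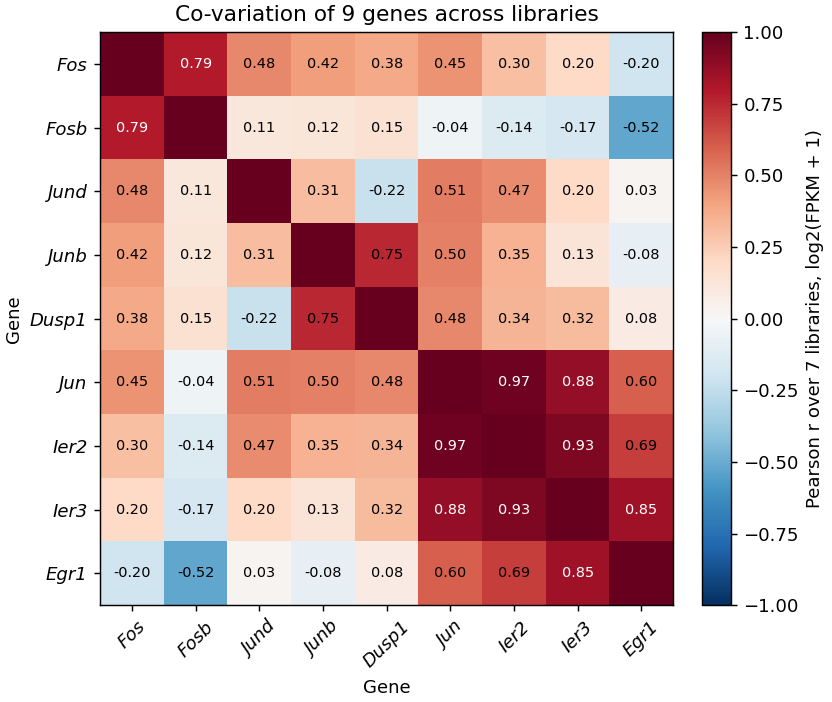
Pearson's r of log2(FPKM + 1) over the 7 libraries for each pair of the 9 tested genes, red for positive and blue for negative values. Jun, Ier2 and Ier3 form the densest corner, from 0.88 to 0.97, and Fosb with Egr1 is the lowest, at -0.52.

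**Figure D4:**
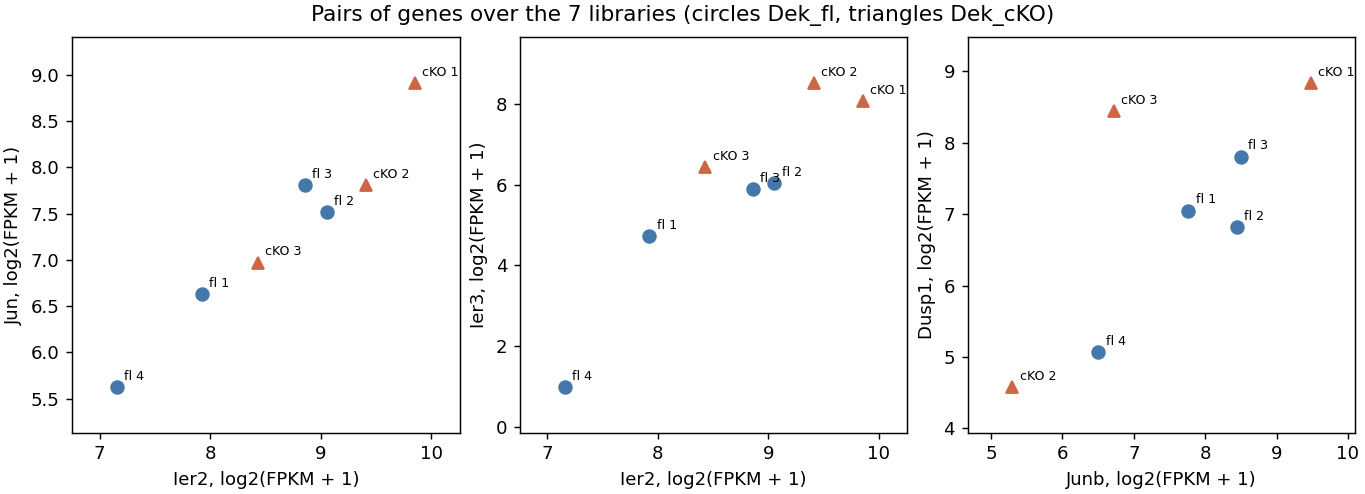
Levels of 3 pairs of genes in the 7 libraries, each axis log2(FPKM + 1), with circles for Dek_fl and triangles for Dek_cKO. Jun follows Ier2 over all libraries, Ier3 follows Ier2 with the triangles set high, and Dusp1 against Junb has Dek_cKO replicate 3 away from the other libraries.

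Ratios within a library set scale aside, since both genes share the library total. Jun stood at 0.405, 0.343, 0.483 and 0.342 of the Ier2 level in the Dek_fl libraries and at 0.521, 0.328 and 0.362 in the Dek_cKO libraries. The highest of these was 1.59 times the lowest, the narrowest range of the 36 pairs, of which the next was 4.82 times, although Ier2 itself varied 6.53-fold and Jun 9.96-fold. On the log2(FPKM + 1) scale that range was 0.66, and 0.00377% of all pairs of tested genes had one as narrow. Those pairs were not matched for level, and Jun and Ier2 stood at or above the 94.3rd and 98.3rd percentiles in every library. The pair was singled out after its values were seen.

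Other ratios separated the groups. Of the 36 pairs, 7 had ratios that did not overlap between Dek_fl and Dek_cKO on the log2(FPKM + 1) scale, against 5.11% of all pairs of tested genes, and 5 of the 7 involved Ier3. By plain FPKM ratio 5 of the 36 did not overlap. The pairs share genes and are not independent. Jun over Junb was 0.452, 0.523, 0.618 and 0.539 in the Dek_fl libraries and 0.677, 5.82 and 1.19 in the Dek_cKO libraries, so that Jun exceeded Junb in Dek_cKO replicates 2 and 3 only. The exact permutation test gave p = 0.0286, the smallest possible, and an adjusted p of 0.257 over the 36 pairs, so no ratio passed. Ier2 over Ier3 was 9.43, 8.18, 7.91 and 145 in the Dek_fl libraries and 3.44, 1.85 and 4.01 in the Dek_cKO libraries, with the same p-values by the exact permutation test. Junb over Ier3 was 8.45, 5.36, 6.17 and 91.8 in the Dek_fl libraries and 2.64, 0.104 and 1.22 in the Dek_cKO libraries, again with the same p-values. The 7 pairs are 19.4% of the 36. Without Dek_cKO replicate 2 the count was 12 (33.3%), but fewer libraries overlap less often, and the share of all pairs of tested genes was then 11.2%. With a pseudocount of 0.1 the count was 5 (13.9%), against 5.23% of all pairs.

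**Figure D5:**
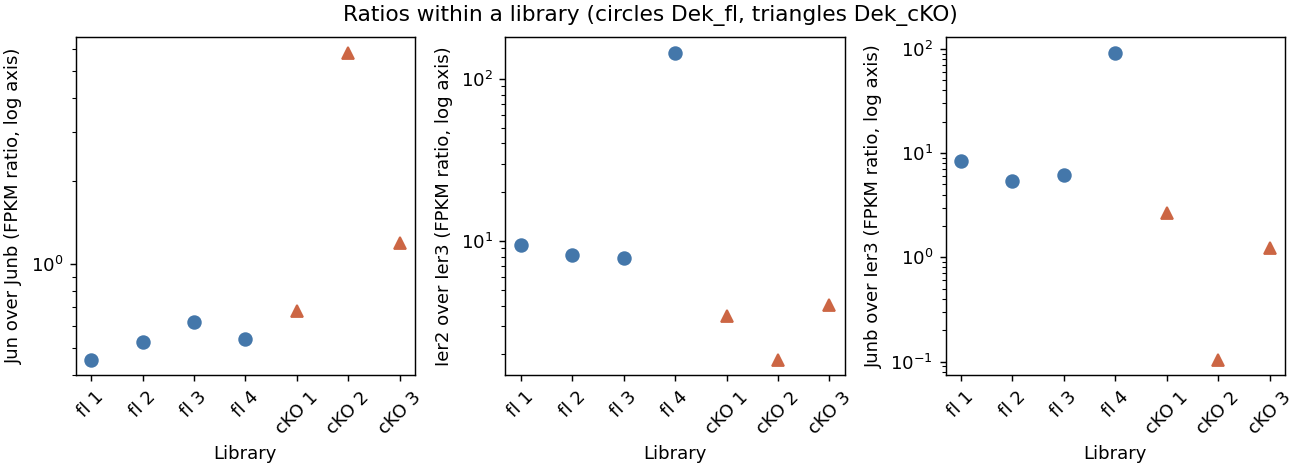
Ratio of FPKM of 2 genes within each library on a log axis, with circles for Dek_fl and triangles for Dek_cKO. Jun over Junb is at most 0.618 in the circles and at least 0.677 in the triangles, and both ratios over Ier3 are lower in each triangle than in each circle.

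The wider program was read from lists of related genes. Of 18 other genes of AP-1 leucine zipper proteins, 11 were tested, with 0 higher and 0 lower at an unadjusted p under 0.05 by limma (2.12% and 1.81% of all tested genes) and a median log2 fold change of -0.04. The highest of them were Atf4, at 108, 126, 90.6 and 7.18 FPKM across the Dek_fl libraries and 85.3, 18.8 and 64.8 in the Dek_cKO libraries, and Batf, at 37.1, 38.4, 54.9 and 2.78 FPKM and 106, 2.37 and 93.9. Batf thus had its low values in Dek_cKO replicate 2 and Dek_fl replicate 4, as Dusp1 did. The genes of smallest p were Fosl2, a FOS paralog, with a log2 fold change of 1.5 (SE 1.04), and Mafk, with 1.49 (SE 1.39).

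Of 33 other immediate early genes in the table, 18 were tested, with 0 past the adjusted threshold by limma. At an unadjusted p under 0.05 by limma, 3 were higher and 0 lower, against 2.12% and 1.81% of all tested genes. The median log2 fold change of the 18 was 1.01, with 14 of 18 above 0. Over all tested genes the median was 0.05, and 52.0% were above 0. The 3 were Csrnp1 at 2.42 (SE 1.04), Btg2, an antiproliferative gene, at 2.88 (SE 1.30), and Trib1 at 1.64 (SE 0.748), the last named after its values were seen. Btg2 is among the genes whose values are not whole reads. Of the 18, 2 were higher without overlap, Btg2 and Trib1, as were 2.86% of all tested genes. Ier5, also named after its values were seen, was the 1 gene lower without overlap, as were 2.09% of all tested genes. It stood at 47.4, 31.3, 44.7 and 76.4 FPKM across the Dek_fl libraries and 30.2, 1.31 and 12.6 in the Dek_cKO libraries. Its log2 fold change was -2.29 (SE 1.12, limma unadjusted p = 0.0536). The 15 genes below the filter included Egr2, Egr3, Nr4a1 and Arc. Of these, Nr4a1 stood at 27.6 FPKM in Dek_cKO replicate 1 and at most at 0.51 in the other libraries. Bhlhe40 and Klf4, also below the filter, reached 22.8 and 18.5 FPKM in Dek_fl replicate 3. Csrnp1 and Trib1 stood at no more than 13.9 and 4.02 FPKM. The most abundant were Myc, at 306, 581, 374 and 437 FPKM across the Dek_fl libraries and 591, 329 and 309 in the Dek_cKO libraries, with a log2 fold change of -0.08 (SE 0.470), and the survival gene Mcl1, at 1.03 (SE 0.991).

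Of 16 feedback regulators, 12 were tested, with a median log2 fold change of -0.07. At the same unadjusted threshold by limma, 1 was higher and 1 lower, against 2.12% and 1.81% of all tested genes. Both were phosphatases of MAP kinases related to Dusp1. Dusp5 stood at 1.06, 0.0258, 3.71 and 0 FPKM across the Dek_fl libraries and at 51.1, 4.02 and 7.80 in the Dek_cKO libraries. Its highest value was in Dek_cKO replicate 1, and its groups did not overlap, as in 2.86% of all tested genes on the higher side. Dusp6 stood at 20.5, 58.7, 4.72 and 20.01 FPKM across the Dek_fl libraries and at 0.180, 12.6 and 0 in the Dek_cKO libraries, with overlap. Their log2 fold changes were 2.90 (SE 1.29) and -2.97 (SE 1.38). The most abundant regulators were the mRNA decay factor Zfp36l2, at -0.24 (SE 0.499), and Dusp2, at 0.10 (SE 0.692).

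Of 25 upstream kinases and transcription factors in the table, 23 were tested, with 0 past the adjusted threshold and a median log2 fold change of 0.72. At the same unadjusted threshold by limma, 0 were higher and 0 lower, against 2.12% and 1.81% of all tested genes. The leading genes by p were Mapkapk2, a kinase downstream of p38, at 2.31 (SE 1.26) and Map2k6 at 2.17 (SE 1.44), and Map2k2, among the most abundant, had -1.21 (SE 0.986). Of 11 heat shock genes, 9 were tested, with a median of 0.20. At that threshold 1 was higher, Hspd1, and 0 were lower, against the same 2.12% and 1.81%. Hspd1 had 1.35 (SE 0.642) and is among the genes whose values are not whole reads. The 11 genes summed to 2167 to 2746 FPKM across the Dek_fl libraries and to 2921 to 3349 in the Dek_cKO libraries, highest in Dek_cKO replicate 1 and without overlap, a sum that was not tested. Without Hspd1 the sums were 2028 to 2627 and 2720 to 3157 FPKM, still without overlap, while as a share of all FPKM of a library the list held 0.377% to 0.543% and 0.432% to 0.692%, with overlap. Dnaja1 and Dnajb1, co-chaperones singled out after their values were seen, were highest in Dek_cKO replicate 1, at 211 and 57.5 FPKM. So were Hsp90ab1 and Hsph1, at 1178 and 80.6 FPKM. Hspd1, Hspe1 and Hsp90aa1 were highest in Dek_cKO replicate 3, at 247, 610 and 604 FPKM. Hspa8 was highest in Dek_fl replicate 3, at 1118 FPKM. Hspa1b, a stress-induced chaperone, was instead highest in Dek_fl replicate 4, at 48.8 FPKM, and stood at most at 6.02 FPKM in the others. Hsp90ab1 and Hspa8, the most abundant, had 0.20 (SE 0.367) and 0.52 (SE 0.448).

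The 5 genes outside the members whose pattern was most like the members' mean log2(FPKM + 1) over the 7 libraries were Zfand6 (Pearson's r = 0.968), Ankrd17 (0.967), Hsph1 (0.963), Stard7 (0.963) and Spg7 (0.961), given as a description. In all, 50 genes (0.488% of those tested) had an r of 0.9 or more and 36 had -0.9 or less. Zfand6 stood at 49.6, 48.5, 76.6 and 0.225 FPKM across the Dek_fl libraries and at 290, 44.8 and 40.4 in the Dek_cKO libraries, and Hsph1, a chaperone of the HSP110 family, at 16.9, 22.4, 47.1 and 1.21 FPKM and 80.6, 39.8 and 21.3. Both were lowest in Dek_fl replicate 4 and highest in Dek_cKO replicate 1.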

How the data were processed

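The table holds 33298 genes and 7 libraries, 1 column each, and the number of unmapped sample columns was 0. The authors deposited FPKM. The submitters' processing notes name HTSeq, Cufflinks 2.1.1 and Bowtie 0.12.9 and the mouse build mm10, with no role given. The series text speaks of triplicates, and the labels give 4 Dek_fl libraries, all of which were used. Groups and replicate numbers came from the titles. The members and gene lists were chosen with earlier results of these data known. Gene positions are from GENCODE M21 (GRCm38, which UCSC calls mm10). It held 99.74% of the gene identifiers.

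FPKM are not counts, so the test was limma 3.58.1 (R 4.3.3) on log2(FPKM + 1), over the 10260 genes that reached 1 FPKM in 3 or more libraries, with the group alone as a term, a mean-variance trend and robust moderation. Fold changes are Dek_cKO minus Dek_fl and understate the change of low genes. P-values are two-sided, with Benjamini-Hochberg adjustment over all genes tested. The step was tested on simulated data. Reads were recovered from FPKM, the transcript length and the library total that makes values whole, with a tolerance of 0.003 reads beyond the effect of rounding FPKM to 4 decimals, for the members and for genes that reached 30 reads in 5 or more libraries. Where the longest transcript gave no whole reads, other lengths were tried, up to about 3 times the longest. Correlations used exact permutation over 5040 pairings. Named genes are the 10 members, Dek, the 2 genes of smallest p and the 2 most abundant of each signalling list, and the 5 genes nearest in pattern. One gene that this rule names is not reported here. Of the marker lists, a few genes are named and the rest are given as sums. The alternatives were other pseudocounts (0.5 and 0.1), filters and scalings, array weights, moderation without trend, the replicate number as a block, and each library left out in turn. Chosen after seeing the data were voom on the recovered reads, the fit with genes of fractional reads removed, Dek in Dek_cKO replicate 3 times 10, and the alternatives for ratios. Python 3.11.15, numpy 2.4.6, pandas 2.3.3 and matplotlib 3.10.9 were used.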

Additional observations from a re-analysis of the deposited data

Results flagged for a closer look

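Among the 4 Dek_fl libraries, 1 library stood apart from the others in Fos and in Egr1, measured as its gap to the nearest of them over the whole range on the log2(FPKM + 1) scale. Chance gives about 1 in 20 of the 11 genes measured (the 10 members and Dek). Fos was low in Dek_fl replicate 2, at 103 FPKM (gap 0.908 of the range). Egr1 was low in Dek_fl replicate 4, at 0.0987 FPKM from 2 reads (gap 0.919), in the library with the fewest genes above 0, and the part of that in the value was not tested. Atf3 was above 0 in Dek_fl replicate 1 alone, at 0.12 FPKM from 1 read. Its gap of 1.0 follows from the 3 other values being 0, so that measure says nothing about Atf3.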

How the results depend on the processing

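No member and no gene of any list passed an adjusted p of 0.05 under any of the 19 alternative fits, voom included, and the smallest adjusted p over all genes was 0.165, by voom on the recovered reads. Leaving out 1 library at a time turned the sign of Fos (log2 fold change -0.08 to 0.81), Dusp1 (-0.17 to 1.96), Junb (-1.79 to 0.30) and Jund (-0.42 to 0.47). Ier3 stayed higher in Dek_cKO throughout, from 2.12 to 3.89 over all alternatives, though its unadjusted p by voom was 0.0831. The 2 pairs of members past adjusted p for Pearson's r became 1 with values centred on the group mean, 1 with median-of-ratios scaling and 0 by Spearman, and the cause was not tested. The count of ratios without overlap ranged from 7 to 12 of 36 when a library was left out, while the share over all pairs of tested genes rose from 5.11% to between 8.53% and 14.1%, since fewer libraries overlap less often. Same-numbered libraries did not deviate together (r of -0.0299, -0.0728 and 0.0446 over genes for numbers 1 to 3). Libraries of different number gave r from -0.0826 to 0.0721. A shared origin need not show in this measure, so whether the numbers mark a pairing was not settled. With the replicate block 0 members were called and their median log2 fold change was 0.55, as without Dek_fl replicate 4, which the block leaves without a partner. Few reads limit Atf3 and Jund, and Egr1 and Ier3 in Dek_fl replicate 4, a library whose total of 4521306 reads exceeds that of 2 others. The cause of its low values was not tested.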
